A study of Danio rerio with 9 samples.

Results

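Myeloid cells are the phagocytes of the innate immune system, and in the zebrafish embryo neutrophils and macrophages are the first white cells to patrol the tissues. They are recognised in whole-embryo RNA by proteins that they store or carry, such as lysozyme or the pore-forming protein of macrophages, while injury or stress induces a separate set of genes in many cell types through cytokine, STAT3, NF-kB and interferon signalling. The genes described here hold both kinds, and their levels were compared in whole zebrafish embryos exposed to either of 2 oxygenated polycyclic aromatic hydrocarbons.

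The members were 32 symbols of myeloid cell and inflammation genes, matched to the Ensembl identifiers of the count table through a reference table of gene names. Of these symbols 27 were matched, 21 exactly and 6 after the duplicate suffix was removed, and they led to 31 of the 32434 genes in the table. Where a shortened symbol belonged to several genes, all of them were taken, and the identifier is printed beside the symbol. The symbols mpx, lect2l, csf1ra, il1b and cxcl8a were not matched and are not described. The 31 genes comprise 19 markers of myeloid cells and leukocytes and 12 genes of the induced inflammatory response. Genome positions are not given here.

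BEZO embryos received the ketone 1,9-benz-10-anthrone at 10 µM, BaAQ embryos the quinone benzanthracene-7,12-dione at 10 µM, and Control embryos the vehicle alone. All were wild-type 5D embryos, held with 1% dimethyl sulfoxide in the water from 6 to 48 hours post fertilization (hpf), in the dark and, according to the labels, at 37 °C. Each group held 3 vials of 20 embryos, described as independent biological replicates, and each vial gave 1 library of polyadenylated RNA from whole embryos, so that leukocytes contributed a small part of the RNA. Levels are given as CPM, counts scaled to the library's total, which allow a gene to be compared between libraries but not with another gene.

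The libraries held 9656592 to 11813335 reads in BEZO, 8106613 to 11351295 in BaAQ and 9620666 to 14435626 in Control. A floor of 3 reads corresponded to 0.208 to 0.370 CPM. Correlations of log2 CPM were 0.985 to 0.990 between libraries of a group and 0.977 to 0.985 between groups. No 2 libraries of a group agreed within sampling noise, with a chi-square of 2.16 to 8.92 per gene. The highest value was between BaAQ 1 and BaAQ 3, and BaAQ 3 is the library named most often below where a call depended on 1 vial.

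Of 18 tested cell markers 16 did not pass the test with BEZO and 13 did not with BaAQ. Of 10 tested induced genes 5 passed with each, all higher with BEZO but 4 higher and 1 lower with BaAQ. In BEZO embryos 7 of the 28 tested members were higher than in Control embryos and 0 lower, where 6.44% of all 18860 tested genes passed in either direction, 3.09% higher and 3.35% lower. In BaAQ embryos 6 members were higher and 4 lower, where 10.2% of all genes passed, 4.82% higher and 5.41% lower. The members were chosen with earlier results of these data known, so a share above that of all genes is not an independent finding. To pass meant an adjusted p under 0.05 in edgeR's quasi-likelihood test, after Benjamini-Hochberg adjustment. Of the cell markers 2 of 18 were higher in BEZO, a share of 11.1%, and none was lower (0 at an unadjusted p under 0.05 and 0 by DESeq2). The induced genes gave 5 higher of 10 and 0 lower, with 0 lower at an unadjusted p and 0 by DESeq2. Among these 5, isg15 was kept by the filter on low counts only through its BEZO reads. In BaAQ 2 cell markers were higher and 3 lower of 18, a share of 27.8% against 10.2% of all genes. The 2 higher with either compound were CEBPB, also made outside blood, and CXCR4 (ENSDARG00000057633), which may not be the listed copy. The 3 lower in BaAQ were lyz, LCP1 and CEBPA, the last active in liver as well. Of the induced genes 4 were higher and 1 lower of 10 in BaAQ. The median log2 fold change in BEZO was 0.15 for cell markers and 0.43 for induced genes. In BaAQ it was -0.05 for cell markers and 0.52 for induced genes, against 0.00 over all tested genes in both comparisons. Without BEZO 3 the members higher in BEZO numbered 4 and the induced genes among them 2; without BEZO 1, BEZO 2, Control 1 or Control 2, and with DESeq2, 3 induced genes passed. The 3 cell markers lower in BaAQ became 0 without BaAQ 3 and 1 without Control 1 or Control 3. The difference between cell markers and induced genes was not tested. Both comparisons use the same 3 Control libraries.

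**Figure D1:**
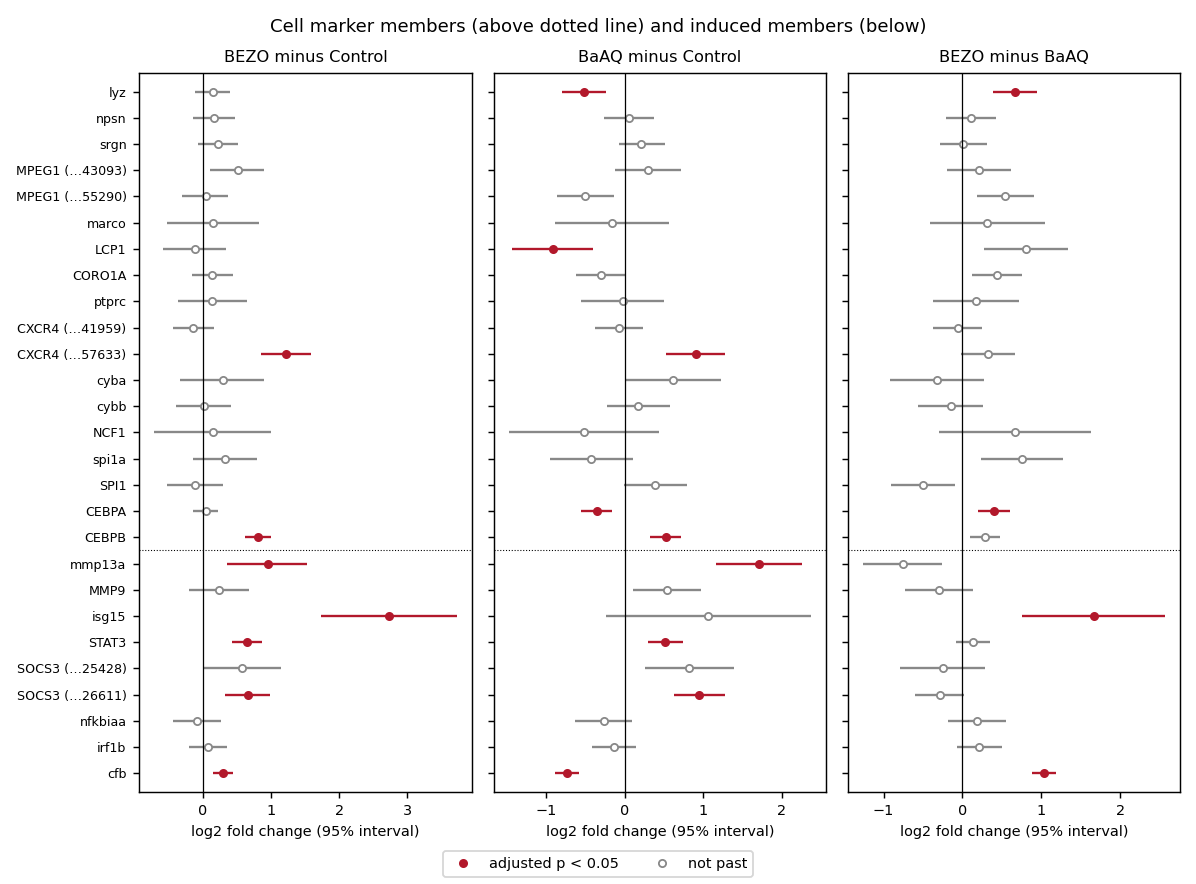
Log2 fold changes of 27 tested members (rows) in BEZO minus Control, BaAQ minus Control and BEZO minus BaAQ, with 95% intervals from the fit. Filled red points passed at an adjusted p under 0.05 and open points did not. In both comparisons with Control most cell markers, above the dotted line, have intervals that cross 0. The second CXCR4 copy, CEBPB, mmp13a, STAT3 and a SOCS3 copy lie to the right of 0 in both. In BEZO minus BaAQ 14 of the 18 cell markers lie to the right of 0.

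None of the 3 granule genes of neutrophils passed in BEZO (0 by edgeR, 0 at an unadjusted p under 0.05 and 0 by DESeq2), and lyz alone was lower in BaAQ. The lysozyme gene lyz, whose product digests bacterial walls and which marks neutrophils and some macrophages, had 17.9, 17.8 and 16.5 CPM in BEZO, 11.9, 11.2 and 10.0 CPM in BaAQ and 17.2, 12.1 and 17.1 CPM in Control. All BaAQ libraries lay below all Control libraries, with Control 2 just above the highest of them. In BaAQ lyz fell by 0.52 ± 0.13 on the log2 scale (SE, adjusted p = 0.0143), and in BEZO its log2 fold change was 0.15 ± 0.12 (adjusted p = 0.58). The fall in BaAQ no longer passed without Control 1 (adjusted p = 0.0646), without Control 3 (0.0859) or without BaAQ 3 (0.0692). The gene npsn encodes nephrosin, a protease of the astacin family found in granulocytes of fish, and had 21.7, 16.8 and 12.6 CPM in BEZO, 16.7, 16.2 and 15.4 CPM in BaAQ and 16.6, 12.5 and 16.1 CPM in Control. The 3 groups overlapped, and the BEZO libraries spread most widely. The gene srgn encodes serglycin, the proteoglycan that packs secretory granules of blood cells, and its log2 fold changes were 0.22 ± 0.14 in BEZO and 0.21 ± 0.14 in BaAQ, with adjusted p = 0.406 and 0.395. In bulk RNA of this kind fewer cells of a type and less RNA per cell cannot be told apart.

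None of the 3 tested macrophage genes passed in either comparison by edgeR or by DESeq2, with 1 higher in BEZO and 1 lower in BaAQ at an unadjusted p under 0.05. MPEG1, the perforin-like gene used to label macrophages in zebrafish, was matched to 3 copies, among which reads may be shared. MPEG1 (ENSDARG00000043093) had 4.06, 5.13 and 4.45 CPM in BEZO, 3.79, 4.44 and 3.76 CPM in BaAQ and 3.12, 2.84 and 3.40 CPM in Control. Every exposed library was above every Control library, but the log2 fold changes of 0.51 ± 0.19 in BEZO and 0.30 ± 0.20 in BaAQ had adjusted p = 0.129 and 0.397. Such separation was common. Of the 28 members 11 had all BEZO libraries above Control and 0 below, against 24.8% of all tested genes apart in either direction, 15.2% above and 9.58% below. For BaAQ 9 members were above and 7 below, against 28.0% of all genes, 18.4% above and 9.63% below. MPEG1 (ENSDARG00000055290) had 6.86, 6.22 and 6.73 CPM in BEZO, 4.85, 4.93 and 3.96 CPM in BaAQ and 7.69, 5.61 and 5.78 CPM in Control. Here the BaAQ libraries were the lowest, with a log2 fold change of -0.51 ± 0.17 and adjusted p = 0.0726. The third copy, ENSDARG00000078569, had 3 reads in all BEZO libraries together, 4 in BaAQ and 6 in Control and was too low to be tested. The scavenger receptor gene marco was at 1.27 to 1.66 CPM in BEZO, 0.626 to 1.60 CPM in BaAQ and 1.08 to 1.66 CPM in Control, and the groups overlapped.

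Among genes carried by leukocytes in general, LCP1 was lower in BaAQ and 1 of the CXCR4 copies was higher in both exposures. LCP1 encodes L-plastin, an actin-bundling protein of white cells. It had 3.39, 4.39 and 4.04 CPM in BEZO, 2.47, 2.59 and 1.77 CPM in BaAQ and 2.70, 4.71 and 4.77 CPM in Control. The BaAQ libraries were below all others, although Control 1 was nearly as low as BaAQ 2. In BaAQ LCP1 fell by 0.92 ± 0.25 on the log2 scale (adjusted p = 0.0201), a call that was lost without Control 2 (adjusted p = 0.104), Control 3 (0.0966) or BaAQ 3 (0.0933) and with DESeq2 (0.0539). CORO1A, which encodes the actin regulator coronin of leukocytes, had 7.62, 9.24 and 7.66 CPM in BEZO, 6.34, 6.54 and 5.42 CPM in BaAQ and 7.17, 7.41 and 7.09 CPM in Control. The 3 groups did not overlap, but neither exposure passed against Control (adjusted p = 0.664 in BEZO and 0.249 in BaAQ). The gene ptprc encodes CD45, the phosphatase on the surface of white cells, and was at 2.54 to 3.57 CPM in BEZO, 2.11 to 3.21 CPM in BaAQ and 2.18 to 3.40 CPM in Control. Its groups overlapped in both comparisons.

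CXCR4 is the receptor of the chemokine CXCL12 and is carried by leukocytes and by other migrating cells of the embryo. CXCR4 (ENSDARG00000057633) had 8.97, 7.78 and 8.80 CPM in BEZO, 7.49, 6.17 and 6.89 CPM in BaAQ and 3.33, 4.36 and 2.89 CPM in Control. All 6 exposed libraries were above all Control libraries. It rose 2.33-fold in BEZO (log2 fold change 1.22 ± 0.17, adjusted p = 0.000116) and 1.86-fold in BaAQ (0.90 ± 0.18, adjusted p = 0.00255). CXCR4 (ENSDARG00000041959) had 6.60, 6.13 and 7.56 CPM in BEZO, 6.34, 7.52 and 7.62 CPM in BaAQ and 7.48, 7.20 and 7.01 CPM in Control. For this copy the groups overlapped, with log2 fold changes of -0.14 ± 0.15 and -0.07 ± 0.15 and 95% intervals of -0.44 to 0.17 in BEZO and -0.38 to 0.23 in BaAQ. Which of the copies is the listed cxcr4b is not given by the name table, and the symbol cxcr4a led to the same genes. The copy that rose is counted among the cell markers and may not be the listed one.

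The phagocyte NADPH oxidase, which makes the superoxide of the respiratory burst, did not pass for any of its 3 subunits (0 called by edgeR and by DESeq2 with either compound, 0 at an unadjusted p under 0.05 in BEZO and 1 higher in BaAQ). The membrane subunit gene cybb had 3.30, 4.67 and 4.45 CPM in BEZO, 5.11, 4.44 and 4.28 CPM in BaAQ and 3.53, 4.29 and 3.98 CPM in Control. Its partner cyba had 2.03, 2.75 and 1.24 CPM in BEZO, 2.73, 2.34 and 2.61 CPM in BaAQ and 1.97, 1.25 and 1.74 CPM in Control. For cyba the BaAQ libraries lay above Control without passing (0.61 ± 0.29, adjusted p = 0.205). NCF1, the cytosolic organiser p47phox, had only 45 reads in BEZO, 26 in BaAQ and 47 in Control. Its 95% intervals on the log2 scale were wide, at -0.71 to 1.00 in BEZO and -1.48 to 0.44 in BaAQ. A change of any size inside these intervals could be present.

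The transcription factors differed among themselves. CEBPB, which drives emergency granulopoiesis and acute-phase transcription and is also made outside blood, had 37.2, 34.0 and 36.3 CPM in BEZO, 28.5, 33.1 and 27.9 CPM in BaAQ and 20.4, 20.6 and 18.9 CPM in Control. Every exposed library was above every Control library. It rose 1.75-fold in BEZO (0.81 ± 0.09 on the log2 scale, adjusted p = 7.04e-06) and 1.43-fold in BaAQ (0.52 ± 0.09, adjusted p = 0.000919). CEBPA, needed for granulocyte commitment and active in liver as well, had 38.0, 30.0 and 36.6 CPM in BEZO, 27.6, 26.9 and 25.7 CPM in BaAQ and 35.5, 32.4 and 31.7 CPM in Control. It moved the other way in BaAQ, where it fell by 0.36 ± 0.09 on the log2 scale (adjusted p = 0.0164), and overlapped Control in BEZO. The fall was not called without Control 1 (adjusted p = 0.072) or BaAQ 3 (0.061).

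SPI1, the master regulator of myeloid fate known as PU.1, had 3.47, 3.66 and 3.94 CPM in BEZO, 4.49, 6.17 and 5.32 CPM in BaAQ and 3.74, 4.50 and 3.33 CPM in Control. Its relative spi1a had 2.62, 2.93 and 2.59 CPM in BEZO, 1.76, 1.60 and 1.46 CPM in BaAQ and 1.87, 2.15 and 2.24 CPM in Control. The estimates of the related genes had opposite signs in both comparisons, with log2 fold changes of -0.11 ± 0.20 for SPI1 and 0.33 ± 0.23 for spi1a in BEZO, and 0.39 ± 0.19 for SPI1 and -0.43 ± 0.25 for spi1a in BaAQ. None of the 4 passed, with adjusted p of 0.823, 0.466, 0.227 and 0.323.

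**Figure D2:**
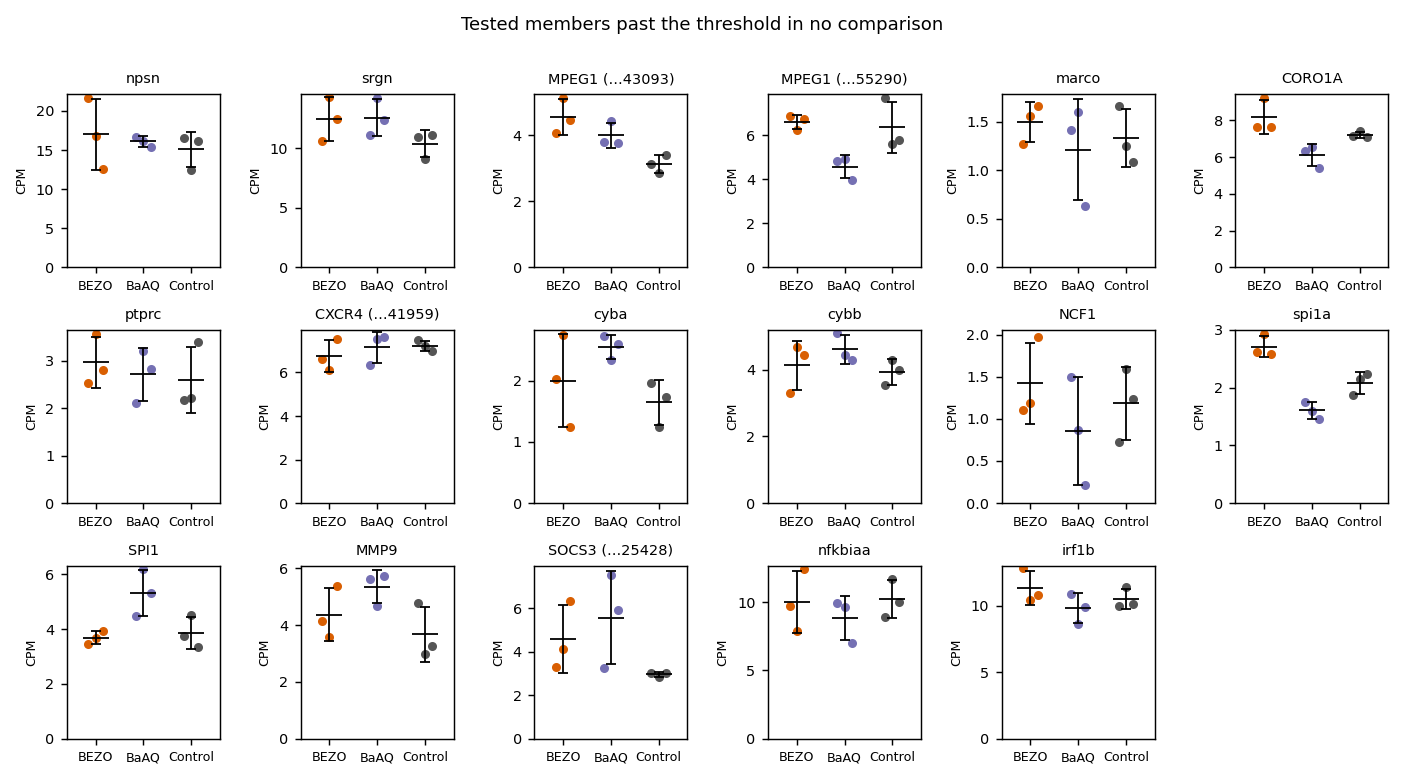
CPM of the 17 tested members that passed in none of the 3 comparisons, 1 panel a gene, with BEZO, BaAQ and Control from left to right. Points are single libraries, and bars give the mean ± SD of 3. Most panels show overlapping groups, as for cybb at 3.30 to 4.67 CPM in BEZO, 4.28 to 5.11 CPM in BaAQ and 3.53 to 4.29 CPM in Control.

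Among the induced genes, the matrix proteases that are released at wounds were led by mmp13a, the collagenase 3 gene. It had 2.45, 3.11 and 2.07 CPM in BEZO, 4.05, 4.69 and 4.49 CPM in BaAQ and 1.04, 0.970 and 1.81 CPM in Control. BaAQ libraries were highest, BEZO libraries came between, and no groups overlapped. It rose 3.26-fold in BaAQ (1.71 ± 0.26 on the log2 scale, adjusted p = 0.00018). In BEZO it was 1.93-fold higher (0.95 ± 0.28, adjusted p = 0.0485), a call that did not hold with DESeq2 (adjusted p = 0.12), in a fit of the BEZO and Control libraries alone (0.0539) or when BEZO 1, BEZO 2, BEZO 3, BaAQ 1, BaAQ 2, Control 1 or Control 2 was left out (0.0539 to 0.202). MMP9, gelatinase B, had 4.15, 3.57 and 5.38 CPM in BEZO, 5.64, 4.69 and 5.74 CPM in BaAQ and 4.78, 2.98 and 3.25 CPM in Control. BaAQ 2 was below Control 1, and the log2 fold change of 0.54 ± 0.21 in BaAQ had adjusted p = 0.114, which became 0.0416 without Control 1.

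Of the cytokine members only tnfa was matched to a gene, as il1b and cxcl8a were not found by symbol. The gene tnfa, tumour necrosis factor, had 0 reads in BEZO, 1 in BaAQ and 1 in Control and was not tested. No reads in BEZO allow up to 3 reads per library, or 0.254 to 0.311 CPM, so a low level could not be detected at this depth.

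STAT3 and SOCS3, a pair in which the factor activated by interleukin-6 family cytokines switches on its own inhibitor, were both higher with either compound. STAT3 had 37.4, 29.7 and 31.7 CPM in BEZO, 28.0, 28.1 and 35.1 CPM in BaAQ and 19.3, 21.1 and 21.0 CPM in Control. The 6 exposed libraries were all above the Control libraries, and BEZO and BaAQ overlapped. It rose 1.57-fold in BEZO (0.65 ± 0.11, adjusted p = 0.000539) and 1.43-fold in BaAQ (0.51 ± 0.11, adjusted p = 0.00344). SOCS3 (ENSDARG00000026611) had 18.5, 16.0 and 21.4 CPM in BEZO, 17.7, 21.7 and 29.8 CPM in BaAQ and 11.4, 10.5 and 12.6 CPM in Control. Again no exposed library reached down to Control, and BaAQ 3 was the highest. This copy rose 1.58-fold in BEZO (0.66 ± 0.16, adjusted p = 0.0125) and 1.93-fold in BaAQ (0.95 ± 0.15, adjusted p = 0.000344). The call in BEZO ended without Control 2 (adjusted p = 0.0707) or BEZO 3 (0.0805).

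SOCS3 (ENSDARG00000025428) had 3.30, 4.12 and 6.32 CPM in BEZO, 3.26, 7.52 and 5.95 CPM in BaAQ and 3.01, 2.84 and 3.04 CPM in Control. Control libraries were close together, while the exposed libraries reached from just above Control to well above it. Its log2 fold changes were 0.57 ± 0.27 in BEZO (adjusted p = 0.258) and 0.82 ± 0.27 in BaAQ (adjusted p = 0.0605). In BaAQ it passed without BaAQ 1 (adjusted p = 0.00538), without BEZO 3 (0.0463), with no filter on low counts (0.00282) or in a fit of the BaAQ and Control libraries alone (0.049).

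The interferon-linked gene isg15 was higher in BEZO. This ubiquitin-like gene, one of the most strongly interferon-induced genes, had 1.35, 1.65 and 0.932 CPM in BEZO, 0.264, 0.493 and 0.522 CPM in BaAQ and 0.312, 0.139 and 0.145 CPM in Control. BEZO libraries stood above all others, while BaAQ and Control overlapped. These levels rest on 43 reads in BEZO, 12 in BaAQ and 7 in Control, and each Control library was at or below the floor of 3 reads. The depth-scaled ratio of reads between BEZO and Control was 7.18, with an exact 95% counting interval of 3.20 to 18.9, and isg15 passed in BEZO (adjusted p = 0.00106) and not in BaAQ (adjusted p = 0.324). DESeq2 gave no adjusted p for it. Only the BEZO libraries had enough reads for isg15 to be kept by the filter on low counts. It was thus tested because of the group where it is high, and its call is not independent of that filter. A stricter filter of 1 CPM in 3 libraries left it out, with BEZO 3 at 0.932 CPM, and 6 members then passed in BEZO.

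The gene irf1b, an interferon regulatory factor, was at 10.4 to 12.8 CPM in BEZO, 8.63 to 10.9 CPM in BaAQ and 9.98 to 11.4 CPM in Control. The gene nfkbiaa, which encodes the inhibitor of NF-kB that is itself induced when NF-kB is active, was at 7.87 to 12.4 CPM in BEZO, 6.99 to 9.95 CPM in BaAQ and 8.94 to 11.7 CPM in Control. Both overlapped between the groups, with 95% intervals on the log2 scale in BEZO of -0.20 to 0.35 for irf1b and -0.43 to 0.26 for nfkbiaa, and in BaAQ of -0.42 to 0.14 for irf1b and -0.63 to 0.09 for nfkbiaa.

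The complement gene cfb went in opposite directions with the compounds. It encodes factor B, which supplies the catalytic subunit of the alternative pathway convertase and comes largely from liver. It had 120.1, 125 and 138 CPM in BEZO, 59.0, 67.1 and 63.3 CPM in BaAQ and 97.4, 98.0 and 108 CPM in Control. The 3 groups did not overlap, with BEZO highest and BaAQ lowest. It was 1.23-fold higher in BEZO (0.30 ± 0.07 on the log2 scale, adjusted p = 0.0109) and fell to 0.601 of the Control level in BaAQ (-0.74 ± 0.07, adjusted p = 9.68e-07). The rise in BEZO did not pass without Control 1 (adjusted p = 0.0577) or BEZO 3 (0.0911).

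**Figure D3:**
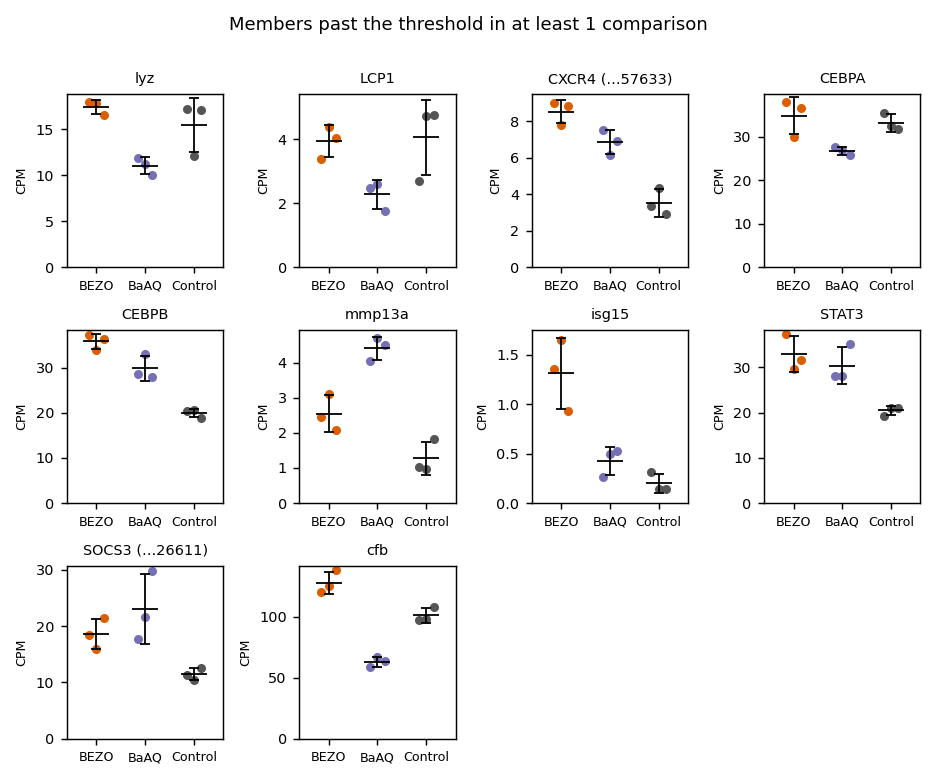
CPM of 10 members that passed in at least 1 comparison, 1 panel a gene, with BEZO, BaAQ and Control from left to right. Points are single libraries, and bars give the mean ± SD of 3. CEBPB, STAT3, mmp13a, SOCS3 (ENSDARG00000026611) and CXCR4 (ENSDARG00000057633) are above Control in all 6 exposed libraries, lyz, LCP1 and CEBPA are lowest in BaAQ, and cfb is highest in BEZO and lowest in BaAQ.

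Set directly against each other at the same dose and time, BEZO and BaAQ differed for 5 of the 28 members, 4 higher and 1 lower in BEZO, where 4.84% of all tested genes passed, 2.27% higher and 2.56% lower. This was the only pair of compounds, and p-values were adjusted over all tested genes. The smallest adjusted p of the 5 was that of cfb, at 128 ± 9.52 CPM in BEZO and 63.2 ± 4.04 CPM in BaAQ (SD, n = 3), a log2 difference of 1.03 ± 0.07 with adjusted p = 1.56e-08. The lysozyme gene lyz was higher in BEZO by 0.67 ± 0.13 (adjusted p = 0.00428), at 17.4 ± 0.806 CPM in BEZO and 11.0 ± 0.952 CPM in BaAQ. CEBPA was higher in BEZO by 0.40 ± 0.10 (adjusted p = 0.0174), and isg15 was higher in BEZO by 1.67 ± 0.43 (adjusted p = 0.0292). The 5 calls became 2 without BaAQ 3 and 3 without BEZO 1 or BEZO 2. CEBPA lost its call without BEZO 1, BEZO 3 or BaAQ 3, with adjusted p of 0.0914, 0.0711 and 0.0591. For isg15 the call was lost without BaAQ 1, BaAQ 2 or BaAQ 3 (adjusted p = 0.138, 0.0667 and 0.0605). It was kept by the filter on low counts only through its BEZO reads, and with the stricter filter 4 members passed.

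For the genes higher in both exposures no difference between the ketone and the quinone passed. The log2 difference was 0.13 for STAT3, with a 95% interval of -0.08 to 0.35, and 0.32 for CXCR4 (ENSDARG00000057633), with an interval of -0.02 to 0.66. For SOCS3 (ENSDARG00000026611) it was -0.29, with an interval of -0.60 to 0.02. CEBPB was 0.29 higher in BEZO with an interval of 0.10 to 0.47 and adjusted p = 0.0781, and mmp13a was at -0.76 with an interval of -1.26 to -0.26 and adjusted p = 0.0764. A difference of any size inside these intervals could be present, and the intervals of CEBPB and mmp13a exclude 0 before adjustment. Among the cell markers the log2 difference was 0.30 in the median, against 0.00 over all tested genes, and 14 of 18 estimates were positive. All BEZO libraries lay above all BaAQ libraries for 10 of the 28 members and below for 3, against 22.3% of all tested genes apart in either direction, 9.8% above and 12.4% below.

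The other genes of these pathways came from lists drawn up with earlier results of these data known. Of 127 tested, 14 were higher and 2 lower in BEZO, a share of 12.6% against 6.44% of all tested genes. In BaAQ 13 were higher and 23 lower, 28.3% against 10.2%, and DESeq2 called 7 higher and 18 lower there. Of the 23 lower in BaAQ, 13 were complement and acute-phase genes. The further neutrophil list, with genes such as CSF3R and rac2, had 10 tested members and 0 called with either compound by edgeR or by DESeq2, with 1 higher in BEZO and 1 lower in BaAQ at an unadjusted p under 0.05. The further macrophage list had 3 higher and 0 lower of 15 in BEZO, 20.0% against 6.44% of all tested genes. In BaAQ it had 4 higher and 1 lower, 33.3% against 10.2%, and at an unadjusted p under 0.05 4 higher and 4 lower. Its estimates in BaAQ were positive for 6 genes and negative for 9. Its calls included cd68, a glycoprotein of the lysosome, at 55.4, 54.1 and 54.7 CPM in BEZO, 62.5, 49.7 and 60.0 CPM in BaAQ and 40.5, 35.4 and 42.9 CPM in Control. All exposed libraries were above Control, with log2 fold changes of 0.43 ± 0.09 in BEZO (adjusted p = 0.00365) and 0.49 ± 0.09 in BaAQ (adjusted p = 0.000893). The cathepsin S gene ctss2.1, a lysosomal protease, rose by 1.28 ± 0.25 in BEZO and 1.15 ± 0.26 in BaAQ (adjusted p = 0.00305 and 0.00603), and the amino acid transporter gene SLC7A7 by 0.62 ± 0.15 and 0.60 ± 0.15 (0.012 and 0.0129). SLC7A7 lost its call in BEZO without Control 3 (adjusted p = 0.0808) or BEZO 3 (0.0721), and in BaAQ without Control 3 (0.0814) or BaAQ 3 (0.0501). The median of this list was 0.20 in BEZO and -0.36 in BaAQ. The symbol MFAP4, used as a macrophage label in zebrafish, led to several genes, and the name table does not tell which is the label. In BaAQ MFAP4 (ENSDARG00000088745) fell by 0.49 ± 0.14 (adjusted p = 0.0254). This call was lost with DESeq2 (0.0745) and without BaAQ 2 (0.0825), BaAQ 3 (0.107), Control 2 (0.0804) or Control 3 (0.0674). The copies ENSDARG00000090783 (-0.36 ± 0.26, adjusted p = 0.444) and ENSDARG00000090557 (-0.11 ± 0.38, 0.905) did not pass in BaAQ, and the rest were too low to be tested.

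Among chemokine and cytokine receptor genes 1 of 12 was higher and 0 lower in BEZO, 8.3% against 6.44% of all tested genes. At an unadjusted p under 0.05 1 was lower there, and 0 were lower by DESeq2. In BaAQ 1 of the 12 was higher and 2 lower, where 10.2% of all tested genes passed. The 1 higher in BaAQ, the interleukin-10 receptor gene il10rb, was not called by DESeq2 (adjusted p = 0.132), with no filter, in a fit of BaAQ and Control alone or without any 1 library but BEZO 2 or Control 3 (0.0539 to 0.141). The ligands of CXCR4 were the 2 that fell in BaAQ. CXCL12 (ENSDARG00000037116) had 70.9, 68.7 and 72.2 CPM in BEZO, 50.0, 48.4 and 47.2 CPM in BaAQ and 69.0, 58.1 and 70.9 CPM in Control, and it fell by 0.49 ± 0.08 in BaAQ (adjusted p = 0.00019). Its relative cxcl12b had 24.0, 28.7 and 27.4 CPM in BEZO, 15.1, 17.0 and 18.2 CPM in BaAQ and 31.6, 30.1 and 30.9 CPM in Control, and it fell by 0.94 ± 0.10 in BaAQ (adjusted p = 2.84e-06). BaAQ libraries were the lowest for both ligands, and both were also higher in BEZO than in BaAQ, by 0.56 ± 0.08 and 0.69 ± 0.10. The receptor gene tnfrsf1a, through which tumour necrosis factor acts, rose by 0.50 ± 0.12 in BEZO (adjusted p = 0.0155), a call lost without Control 1 (0.0795) or BEZO 3 (0.077).

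The list of NF-kB and Toll-like receptor genes had 0 called of 23 in BEZO (3 higher and 1 lower at an unadjusted p under 0.05, 0 by DESeq2), and 3 higher and 2 lower in BaAQ (1 higher and 0 lower by DESeq2). The edgeR shares were 0.0% in BEZO and 21.7% in BaAQ, against 6.44% and 10.2% of all tested genes. In BaAQ the calls of REL, relb, nfkbiab and CHUK were each lost without Control 2 (adjusted p = 0.057 to 0.134) or BaAQ 3 (0.0589 to 0.161). Of 22 JAK, STAT and interferon genes, 2 were higher and 0 lower with either compound, a share of 9.1% against 6.44% of all tested genes in BEZO and 10.2% in BaAQ, and by DESeq2 1 was higher and 0 lower with either. The factor gene irf9, which acts with STAT2 in the interferon response, had 10.3, 12.7 and 12.6 CPM in BEZO, 6.17, 7.03 and 11.3 CPM in BaAQ and 6.44, 6.65 and 5.28 CPM in Control. BEZO libraries lay above Control, and BaAQ 3 lay among them while BaAQ 1 and BaAQ 2 were near Control, with a rise of 0.92 ± 0.18 in BEZO (adjusted p = 0.00337) and an estimate of 0.36 ± 0.20 in BaAQ (0.29). The partner stat2 rose by 0.52 ± 0.14 in BaAQ (adjusted p = 0.0214), a call lost without Control 3 (0.121) or BaAQ 3 (0.132). IRF7, a master regulator of type I interferon, passed narrowly with both (0.57 ± 0.16 in BEZO, adjusted p = 0.041, and 0.53 ± 0.17 in BaAQ, 0.0497) and with neither by DESeq2 (0.104 and 0.115). Its call in BEZO was lost without BEZO 2, BEZO 3 or any Control library (0.0605 to 0.139), and its call in BaAQ without any library but BaAQ 1 (0.0509 to 0.172). Prostaglandin and leukotriene genes moved both ways, 3 higher and 1 lower of 11 in BEZO, and 3 higher and 3 lower in BaAQ, where DESeq2 called 1 higher and 3 lower. The edgeR shares were 36.4% in BEZO and 54.5% in BaAQ, against 6.44% and 10.2% of all tested genes. The cyclooxygenase gene ptgs1 rose by 0.82 ± 0.16 in BEZO (adjusted p = 0.00258), at 12.1, 11.9 and 11.8 CPM in BEZO against 6.03, 7.27 and 6.29 CPM in Control. In BaAQ ptgs1 was at 7.84, 9.75 and 12.9 CPM and was called higher by 0.57 ± 0.17 (adjusted p = 0.0331), but not with DESeq2 (0.0521), in a fit of BaAQ and Control alone (0.0514) or without Control 1, Control 3, BaAQ 2 or BaAQ 3 (0.0567 to 0.24). Other metalloproteases and their inhibitors had 0 called of 13 in BEZO (0 at an unadjusted p under 0.05 and 0 by DESeq2) and 0 higher and 2 lower in BaAQ (0 higher at an unadjusted p and by DESeq2). Their shares were 0.0% in BEZO against 6.44% of all tested genes, and 15.4% in BaAQ against 10.2%. The stromelysin-related gene mmp11b fell by 0.83 ± 0.13 in BaAQ (adjusted p = 0.00018), opposite in sign to mmp13a.

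Complement and acute-phase genes beside cfb were the list with the most calls. In BEZO 5 were higher and 1 lower of 23, a share of 26.1% against 6.44% of all tested genes. In BaAQ 0 were higher and 13 lower, 56.5% against 10.2% (0 higher at an unadjusted p under 0.05 and 0 by DESeq2). The list was drawn up with earlier results of these data known. In BEZO against BaAQ 10 were higher and 0 lower (0 lower at an unadjusted p and by DESeq2), 43.5% against 4.84% of all tested genes. All 23 estimates were positive there, with a median of 0.39. The complement gene c4b had 64.5, 61.4 and 58.2 CPM in BEZO, 19.9, 18.1 and 25.5 CPM in BaAQ and 47.9, 52.6 and 40.2 CPM in Control, so that no groups overlapped. It fell by 1.20 ± 0.12 in BaAQ (adjusted p = 9.51e-07), and its estimate in BEZO was 0.35 ± 0.11 (adjusted p = 0.0543). The pore-forming component c9 had 294, 302 and 322 CPM in BEZO, 204, 177 and 203 CPM in BaAQ and 217, 205 and 215 CPM in Control, and it rose by 0.49 ± 0.06 in BEZO (adjusted p = 4.89e-05). CP, the copper carrier ceruloplasmin, took the same order as cfb, with log2 fold changes of 0.51 ± 0.08 in BEZO (adjusted p = 0.000227) and -0.41 ± 0.08 in BaAQ (adjusted p = 0.00181). Most of these proteins are made by the liver. Of 5 tested liver genes, which include CP and ambp from the same list, 1 was higher and 2 lower in BEZO and 0 were higher and 3 lower in BaAQ (0 higher at an unadjusted p and by DESeq2), among them the angiotensinogen gene agt, which fell by 0.44 ± 0.09 in BEZO and by 1.25 ± 0.10 in BaAQ (adjusted p = 0.00529 and 6.97e-08). The liver calls were 60.0% of the 5 with either compound, against 6.44% of all tested genes in BEZO and 10.2% in BaAQ. The summed level of the 6 matched liver genes was 764 to 873 CPM in BEZO, 547 to 673 CPM in BaAQ and 799 to 956 CPM in Control. The part of liver tissue in the values of cfb was not tested.

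**Figure D4:**
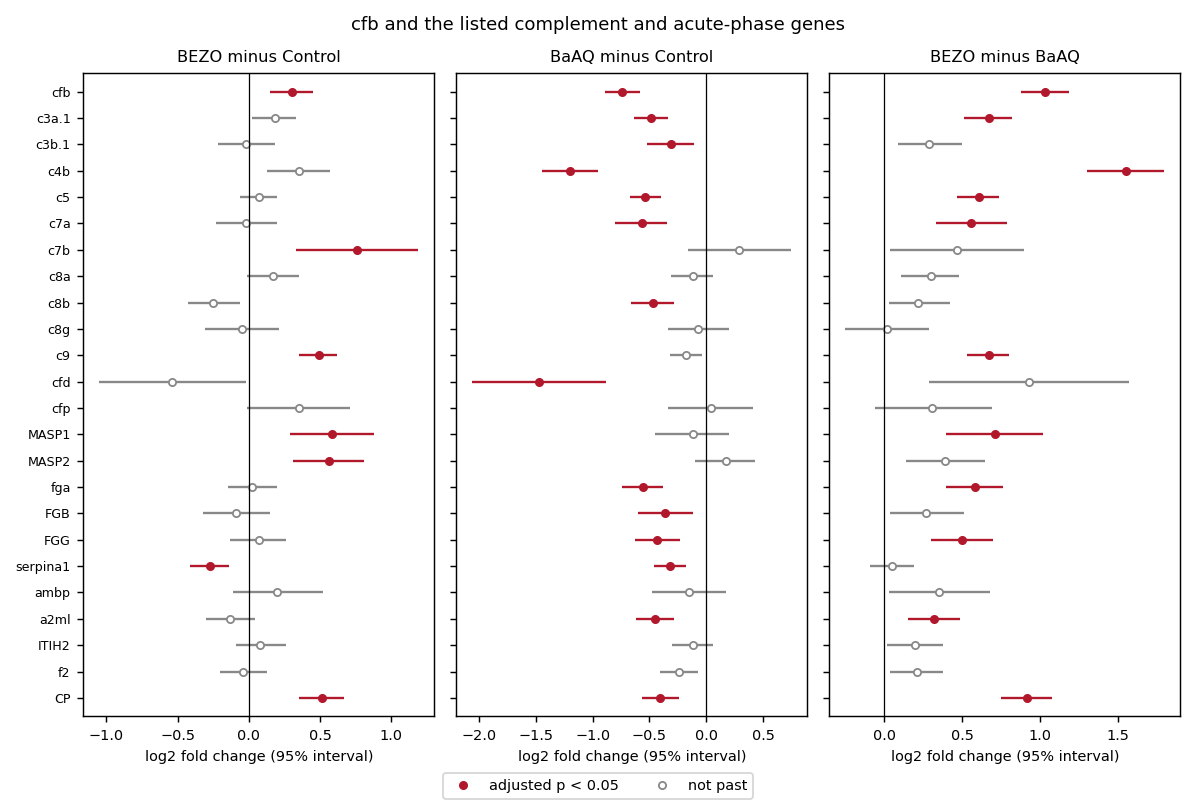
Log2 fold changes of cfb and of the 23 tested complement and acute-phase genes (rows) in BEZO minus Control, BaAQ minus Control and BEZO minus BaAQ, with 95% intervals from the fit and a separate scale in each panel. Filled red points passed at an adjusted p under 0.05. In BaAQ minus Control 13 of the 23 genes and cfb passed below 0, and in BEZO minus BaAQ every point lies above 0.

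Red blood cell genes were lower in BEZO and higher in BaAQ where they passed. Of 9 red blood cell genes, 4 were lower and 0 higher in BEZO (0 higher at an unadjusted p under 0.05 and 0 by DESeq2), a share of 44.4% against 6.44% of all tested genes. In BaAQ 3 were higher and 0 lower (0 lower at an unadjusted p and by DESeq2), 33.3% against 10.2%. Of the 3 in BaAQ, alas2, the first enzyme of heme synthesis in red cells, rose by 0.60 ± 0.11 (adjusted p = 0.00138). SLC4A1 (ENSDARG00000012881) lost its call in a fit of BaAQ and Control alone (adjusted p = 0.0645) and without any library but BaAQ 3 (0.0516 to 0.262), and epb41b lost it without BaAQ 1, BaAQ 2 or any Control library (0.0557 to 0.127). The summed level of the 9 genes was 640.5 to 760.5 CPM in BEZO, 995 to 1368 CPM in BaAQ and 1079 to 1106 CPM in Control, and BaAQ 3 was the BaAQ library at 995 CPM, below Control. The summed level of the 19 cell marker members was 172 to 179 CPM in BEZO, 139 to 154 CPM in BaAQ and 136 to 148 CPM in Control. Much of the higher sum in BEZO came from CEBPB, which is also made outside blood, and CXCR4 (ENSDARG00000057633). Without these 2 genes, chosen after their values were seen, the sum of the other 17 was 127 to 133 CPM in BEZO, 104 to 115 CPM in BaAQ and 111 to 124 CPM in Control. Lymphoid and thymus genes were near the detection limit, at 6.42 to 7.32 CPM for 8 genes together in BEZO, 5.11 to 6.54 CPM in BaAQ and 7.38 to 9.63 CPM in Control, and RAG2, il7r, cd4-1, ZAP70 and cd8a were too low to be tested. The thymus gene foxn1 fell by 1.03 ± 0.26 in BaAQ (adjusted p = 0.0153), a call lost with DESeq2 (0.0571) and without Control 2 (0.118) or BaAQ 3 (0.0632). MYB, a factor of blood progenitors, fell by 0.43 ± 0.12 in BaAQ (adjusted p = 0.0305), a call lost with DESeq2 (0.067) and without Control 1, Control 2, BaAQ 2 or BaAQ 3 (0.0595 to 0.133). Of 7 epidermis genes 1 was higher and 1 lower in BEZO, a share of 28.6% against 6.44% of all tested genes. The 1 lower in BEZO, krt5, lost its call when any Control or BEZO library was left out (adjusted p = 0.0649 to 0.142). In BaAQ 1 was higher and 2 lower, 42.9% against 10.2%. There the keratin genes krt4 and krt5 fell by 0.40 ± 0.07 and 0.64 ± 0.08 (adjusted p = 0.000508 and 9.66e-06). The gene evpla was the 1 higher with either compound, and its log2 fold change in BaAQ was 0.53 to 0.7 without 1 library in turn. In BEZO its call was lost without BEZO 1 (adjusted p = 0.0601). Of the 7 estimates in BaAQ 3 were positive and 4 negative. The summed level of the epidermis genes was 19561 to 19794 CPM in BEZO, 13966 to 16036 CPM in BaAQ and 18430.3 to 19470.5 CPM in Control, so that BaAQ was the lowest. The part of cell composition in the values of the members was not tested.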

How the data were processed

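The deposited table holds raw counts of reads per Ensembl gene for the 9 libraries, and the authors' work before it named CASAVA 1.8, FastQC, TopHat2, HTSeq, edgeR and the Zv9 build, per the submitters' processing notes, which give no roles; whether strand was used is not given in the sources used here. Genes that share reads with a near-identical copy are uncertain. The main test was edgeR 4.0.16 (R 4.3.3, limma 3.58.1): TMM normalization, filterByExpr (18860 genes kept), the quasi-likelihood test over all 9 libraries with no block, and Benjamini-Hochberg adjustment over all genes kept, with a threshold of 0.05. SE is the log2 fold change divided by the root of F, and intervals use the fit's degrees of freedom. Errors on CPM are SD over 3 libraries. Floors and the exact interval of isg15 cover counting error only. The fit was tested on simulated data. Alternatives were DESeq2 1.42.0, RLE size factors, 2 filters, the replicate number as a block, each pair of groups alone and each library left out. Tables were made in pandas 2.3.3 with NumPy 2.4.6 (Python 3.11.15), and plots in matplotlib 3.10.9. Of the 31 matched genes, 2 enter the counts but are not reported here; every other matched member is named; of the other lists, up to 4 genes with the smallest p among those past the threshold were eligible, and not all are named. The members and lists were chosen with earlier results of these data known.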

Additional observations from a re-analysis of the deposited data

How the results depend on the processing

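No member changed sign and passed in the other direction under any alternative. The count of all genes past the threshold in BEZO minus BaAQ was 1389 with no filter on low counts, against 912. Without 1 library in turn, the genes past the threshold numbered 761 to 1502 in BEZO minus Control, 1276 to 1992 in BaAQ minus Control and 531 to 883 in BEZO minus BaAQ, and the members past it 4 to 7, 7 to 11 and 2 to 5. Replicate numbers did not pair the libraries: same-numbered libraries had correlations of deviations of -0.036 to 0.029, and a library correlated best with its own number in 2 of 18 cases. With the replicate block 1184, 1916 and 839 genes and 6, 11 and 5 members passed in the 3 comparisons. Under the block mmp13a in BEZO did not pass (adjusted p = 0.0603) and SOCS3 (ENSDARG00000025428) in BaAQ did (0.0302). DESeq2 called 5, 9 and 4 members. Passing was gained for CEBPB in BEZO minus BaAQ without BaAQ 2 (adjusted p = 0.0468) and, with no filter, for LCP1 (0.0249) and mmp13a (0.0384). Genes under about 3 CPM, such as NCF1, marco and isg15, rest on few reads. The labels tie no vial to a spawn, so p-values measure the spread between vials.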
